A study of Mus musculus with 9 samples.

Results

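Peroxisome proliferator-activated receptors (PPARs) are nuclear receptors that bind fatty acids and, as heterodimers with retinoid X receptors, switch on genes of fatty acid uptake, storage and oxidation. Fatty acids enter mitochondria through the carnitine shuttle for beta-oxidation, and peroxisomes shorten very long chains. In the mammary gland the same genes are best known from fat cells of the surrounding pad and from secretory luminal cells, which make milk lipid. Described here are 8 genes of this system, given by symbol and all found in the authors' table of 54456 gene names. They are the receptor genes Ppara and Pparg, their coactivator gene Ppargc1a, the oxidation genes Cpt1a and Acaa1b, and the well-known PPAR targets Pdk4, Plin2 and Angptl4. The 8 were chosen with the levels of these libraries already known, so their values are a description and no test is given for them. All 8 passed the filter on low counts, as did 18051 genes in all.

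The libraries came from wild-type (WT) mouse mammary epithelial cells sorted by flow cytometry and reaggregated in 3 ways, with 3 libraries of each: purely basal, purely luminal, and a 50% mixture. Every aggregate lay in 80% Matrigel near a heparin sulfate bead of 100 to 150 µm that had been soaked in 100 µg/mL FGF10, and was collected after 56 h of migration by the treatment label or 55 h by the titles. The sources used here do not state the age or sex of the mice, or whether libraries of a group came from separate mice or cultures. Each p-value therefore sets a difference between kinds of aggregate against the spread between libraries, which may be technical. No aggregate was free of FGF10, so all values compare kinds of aggregate under the same factor.

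Library totals ranged from 15585324 to 19164405 counts, and 3 counts, taken as the lowest level that can be told from 0, equalled 0.152 to 0.187 CPM, a count scaled for library size and composition. Reads carried no molecular identifiers, so this limit covers counting error only. Codes that open the column names form 3 series that cross the groups. Series A holds the 3 mixed libraries and basal 2, series B holds basal 1, basal 3 and luminal 1, and series C holds luminal 2 and 3. What the codes stand for is not given, and no series holds both mixed and luminal libraries, so that a fit with the series as a term compares these kinds only by way of the basal libraries and luminal 1. The summed level of 6 luminal markers was 3400 to 3870 CPM in basal, 7110 to 9740 in luminal and 8950 to 10500 in mixed libraries, and that of 5 basal markers 8620 to 9950, 1330 to 2630 and 5840 to 6950 CPM. Each pure kind thus had more of its own markers than the other pure kind had, though neither lacked the other set. Luminal libraries held 1290 to 2550 CPM of the basal marker Krt14. Single luminal markers disagreed in the mixed libraries. Krt19 stood at 4000 to 5010 CPM there and 1070 to 1640 in luminal libraries, and Krt18 at 1320 to 1640 and 2130 to 3720 CPM.

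Sequences bear on the members in 2 ways. Acaa1b has a close neighbour, Acaa1a, and the counting settings in the file header leave out reads placed at several sites. Their coding sequences, each 1275 bases in the GENCODE transcripts, differ at 44 bases (96.5% identical), and the longest identical run is 327 bases. Of all 100-base windows of the Acaa1b transcript, 22.6% also occur in an Acaa1a transcript, and of all 50-base windows 35.5%. The 60 coding bases that differ most, bases 259 to 318 counted from the start codon, are shown with the 11 differing bases in capitals.
Acaa1a: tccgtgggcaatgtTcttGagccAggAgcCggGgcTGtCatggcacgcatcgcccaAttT
Acaa1b: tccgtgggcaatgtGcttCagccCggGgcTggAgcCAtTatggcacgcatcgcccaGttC

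The promoters of 7 of the 8 genes (all but Angptl4), with 9 start sites, were in the RefSeq table of build GRCm38.p6, each as 250 bases before and 50 after the start. The binding motif of PPARs is a direct repeat, AGGTCANAGGTCA, which was searched on both strands with up to 2 mismatches outside the N. Of these 7 genes Plin2 was the only one with a match, and 3.86% of the 32851 promoters in the table hold one. The exact half-site AGGTCA, which overlaps the repeat, was found in 16.3% of promoters, and among members in those of Plin2, Cpt1a and Pparg (at 2 of its 3 start sites). These matches are letters in a window, and no binding was measured. The 250 bases upstream of Plin2 (chr4:86670060-86670309, minus strand) carry the repeat in capitals as its reverse complement, and those of Cpt1a (chr19:3323051-3323300, plus strand) the half-site, likewise reversed.
Plin2: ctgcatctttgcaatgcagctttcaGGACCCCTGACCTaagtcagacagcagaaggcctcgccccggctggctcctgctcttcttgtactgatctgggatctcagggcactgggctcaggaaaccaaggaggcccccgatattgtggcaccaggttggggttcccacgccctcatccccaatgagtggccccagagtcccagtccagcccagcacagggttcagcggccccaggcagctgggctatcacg
Cpt1a: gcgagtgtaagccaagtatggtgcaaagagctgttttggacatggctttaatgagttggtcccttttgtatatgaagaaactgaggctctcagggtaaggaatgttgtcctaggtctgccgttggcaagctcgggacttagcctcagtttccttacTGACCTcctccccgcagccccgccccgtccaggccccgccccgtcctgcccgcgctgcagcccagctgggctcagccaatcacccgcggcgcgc

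For 6 of the 8 genes (Pdk4, Acaa1b, Angptl4, Plin2, Pparg and Ppargc1a) every luminal library lay above all basal and mixed libraries, a pattern that 13.8% of all tested genes show. For 4 genes (Pdk4, Cpt1a, Plin2 and Ppara) every mixed library lay below all libraries of both pure kinds, which holds for 7.2% of tested genes. No member had every mixed library above all others (5.02% of tested genes) or every luminal library below all others (13.1%). By the threshold used for other genes, an adjusted p under 0.05, 6 of the 8 were higher in luminal than in basal aggregates, where 12.8% of tested genes were higher and 27.1% passed in either direction. Likewise 7 were lower in mixed than in luminal aggregates (14.2% of tested genes lower, 29.4% in either direction) and 1 was higher in mixed than in basal aggregates (6.39% higher, 13.7% in either direction). Nothing is read from these counts, because the genes were chosen on such values.

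**Figure D1:**
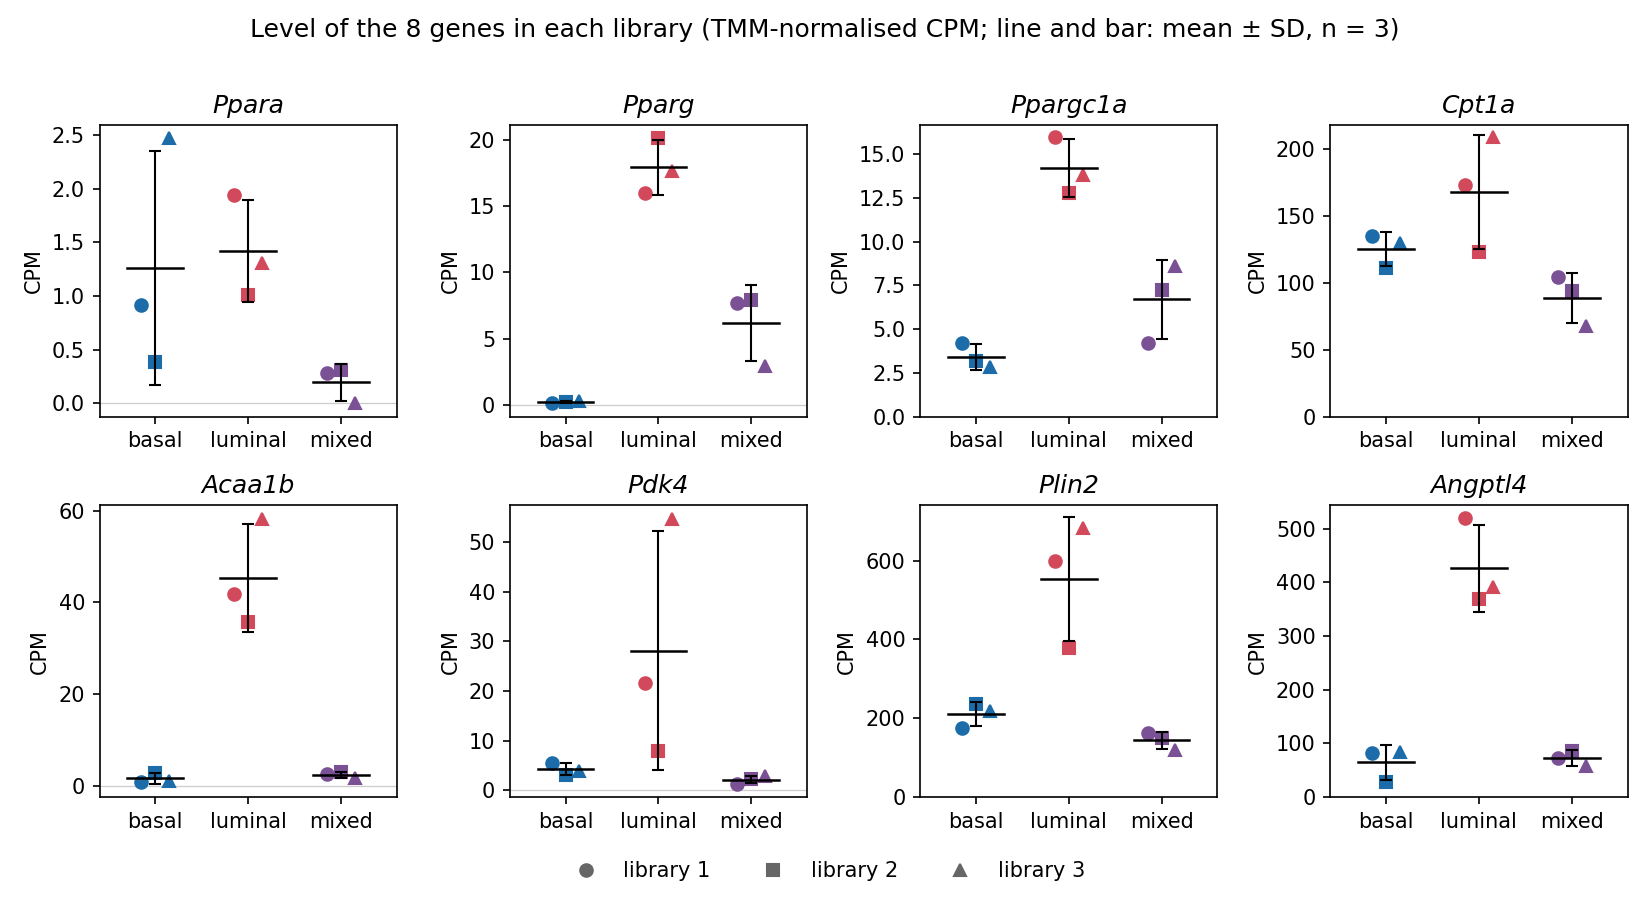
Level of each of the 8 genes in the 9 libraries, in CPM on linear axes that include 0. Points are libraries (circle, square and triangle for libraries 1, 2 and 3 of a group), and lines and bars are the mean and SD of the 3 libraries. Luminal points lie above all others for Pparg, Ppargc1a, Acaa1b, Pdk4, Plin2 and Angptl4, and mixed points lie below all others for Ppara, Cpt1a, Pdk4 and Plin2.

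The receptor gene Pparg, whose product drives fat storage and adipocyte differentiation (mm39 chromosome 6, 115337912 to 115467360), was close to absent from basal aggregates. It stood at 0.152, 0.220 and 0.345 CPM in basal 1, 2 and 3, which are 3, 4 and 6 counts. Luminal 1, 2 and 3 held 16.0, 20.1 and 17.6 CPM, and mixed 1, 2 and 3 held 7.73, 7.94 and 2.94 CPM. The 3 groups did not overlap, and mixed 3 lay well below the other mixed libraries. The log2 difference was 6.19 ± 0.53 (SE) for luminal against basal and 4.67 ± 0.51 for mixed against basal. Mixed against luminal it was -1.53 ± 0.41.

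Ppara encodes the receptor that governs fatty acid oxidation in liver (chromosome 15, 85619184 to 85687020), and it stayed at or under 2.47 CPM in every library. Basal 1, 2 and 3 held 0.913, 0.386 and 2.47 CPM, luminal 1, 2 and 3 held 1.94, 1.01 and 1.31 CPM, and mixed 1 and 2 held 0.286 and 0.308 CPM. Mixed 3 had 0 counts, which allows up to 0.163 CPM. Basal and luminal libraries overlapped, at a log2 difference of 0.18 ± 1.02 whose sign changed when basal 2 (-0.26) or luminal 1 (-0.11) was left out. Mixed libraries were the lowest, at a difference of -2.64 ± 1.13 from basal and -2.81 ± 1.14 from luminal aggregates, but with 5, 5 and 0 counts.

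Ppargc1a, the coactivator PGC-1alpha that promotes mitochondrial biogenesis and oxidation (chromosome 5, 51611592 to 51725068), stood at 4.21, 3.20 and 2.82 CPM in basal 1, 2 and 3. In luminal 1, 2 and 3 it stood at 16.0, 12.8 and 13.8 CPM, and in mixed 1, 2 and 3 at 4.23, 7.26 and 8.61 CPM. Mixed 1 was level with basal 1, and the other mixed libraries lay between the pure kinds. Luminal exceeded basal aggregates by 2.06 ± 0.35 on the log2 scale, and mixed were below luminal aggregates by -1.08 ± 0.34.

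Of the partners of these receptors, Rxra, the retinoid X receptor gene, hardly varied (118 to 145 CPM in basal, 133 to 150 in luminal and 111 to 131 in mixed libraries). Its log2 difference was 0.03 ± 0.16 for luminal against basal (edgeR, adjusted p = 0.91). Ppard, the widely expressed PPAR gene, was highest in the libraries of series A. It held 15.9 to 18.8 CPM in mixed and 6.41 to 10.2 in luminal libraries. Basal 2 held 17.7 CPM of it and basal 1 and 3 held 7.91 and 8.57, and no contrast passed (adjusted p = 0.47, 0.27 and 0.054 for luminal against basal, mixed against basal and mixed against luminal). Rxrb, another of its partners, stood at 32.9 to 49.2 CPM in mixed and 55.7 to 97.7 in pure libraries, at -0.84 ± 0.21 against basal (adjusted p = 0.023) and -1.16 ± 0.21 against luminal aggregates (adjusted p = 0.0026). With the code series as a term these were -0.40 (adjusted p = 0.45) and -0.55 (adjusted p = 0.62), and neither passed.

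Cpt1a, the carnitine palmitoyltransferase that sets the rate of fatty acid entry into mitochondria (chromosome 19, 3372334 to 3435733), varied least between the pure kinds among the abundant members. Basal 1, 2 and 3 held 135, 111 and 130 CPM, and luminal 1, 2 and 3 held 173, 123 and 209 CPM. Mixed 1, 2 and 3 held 104, 94.1 and 68.0 CPM. Luminal 2 lay within the range of the basal libraries, whereas every mixed library lay below them all. The log2 differences were 0.43 ± 0.22 for luminal and -0.50 ± 0.22 for mixed against basal aggregates, and -0.93 ± 0.22 for mixed against luminal.

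Acaa1b is a peroxisomal thiolase, which performs the last step of peroxisomal beta-oxidation and is induced by PPAR-alpha agonists in rodent liver (chromosome 9, 118977091 to 118986161). It stood at 0.761, 2.87 and 1.09 CPM in basal 1, 2 and 3 and at 41.9, 35.7 and 58.3 CPM in luminal 1, 2 and 3. Mixed 1, 2 and 3 held 2.63, 2.95 and 1.69 CPM, close to basal 2 and far below every luminal library. The log2 difference was 4.85 ± 0.48 for luminal against basal and -4.22 ± 0.46 for mixed against luminal aggregates.

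Its neighbour Acaa1a, the constitutive thiolase, moved far less. Basal libraries held 137 to 162 CPM of Acaa1a, luminal libraries 242 to 269 and mixed libraries 166 to 226. It rose by 0.74 ± 0.17 in luminal against basal aggregates (adjusted p = 0.0063, and 0.12 with the code series as a term), and did not pass in mixed against luminal (-0.32 ± 0.17, adjusted p = 0.17). Reads that could not be placed between the neighbours are missing from both values. The overlapping gene Dlec1, which covers 11.4% of the exon bases of Acaa1b, stayed between 0.178 and 2.30 CPM over all 9 libraries.

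Pdk4 encodes a kinase that shuts pyruvate dehydrogenase and so spares glucose when fat is burnt (chromosome 6, 5483351 to 5496309). Basal 1, 2 and 3 held 5.48, 3.09 and 3.97 CPM. Luminal 1, 2 and 3 held 21.7, 7.83 and 54.8 CPM, the widest relative spread of any member among luminal libraries. Mixed 1, 2 and 3 held 1.32, 2.34 and 2.78 CPM, less than any pure library. The luminal excess over basal was 2.75 ± 0.60 on the log2 scale and 1.82 without luminal 3, and mixed were below luminal aggregates by -3.71 ± 0.63, or -2.79 without luminal 3.

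Plin2 coats lipid droplets in most cells, and in milk-secreting cells it sits on the milk fat globule (chromosome 4, 86566623 to 86588297). It was the most abundant member on every scale. Basal 1, 2 and 3 held 175, 235 and 219 CPM, luminal 1, 2 and 3 held 599, 377 and 684, and mixed 1, 2 and 3 held 162, 150 and 120 CPM. The groups did not overlap, and mixed aggregates were the lowest. Log2 differences were 1.40 ± 0.23 for luminal against basal, -0.54 ± 0.23 for mixed against basal and -1.94 ± 0.24 for mixed against luminal.

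Angptl4, a secreted inhibitor of lipoprotein lipase that is also induced by hypoxia (chromosome 17, 33992724 to 34000804), stood at 81.4 and 84.2 CPM in basal 1 and 3 and at 27.2 CPM in basal 2. Luminal 1, 2 and 3 held 519, 368 and 392 CPM, and mixed 1, 2 and 3 held 73.3, 86.4 and 57.9 CPM. Mixed and basal libraries overlapped (0.17 ± 0.35), and the sign of that difference turned to -0.21 without basal 2. With the code series as a term it was 1.42, a fit in which basal 2 is the only basal library in the series of the mixed ones. Luminal stood above basal by 2.73 ± 0.37, and mixed below luminal aggregates by -2.56 ± 0.37.

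Per kilobase of exon, which allows levels of different genes to be compared, the order was nearly the same in each kind of aggregate at the top. In luminal aggregates Plin2 stood at 158 ± 45.1 CPM per kb (SD, n = 3) and Angptl4 at 120 ± 23.0, and these neighbours lay within their spread of each other. Acaa1b (23.1 ± 5.95) and Cpt1a (22.0 ± 5.61) came next and did not differ beyond their spread. Pdk4 (8.01 ± 6.87) and Pparg (6.05 ± 0.698) followed, also within their spread, then Ppargc1a (2.15 ± 0.253) and Ppara (0.370 ± 0.124).

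In basal aggregates Plin2 (59.7 ± 8.87 CPM per kb), Angptl4 (18.1 ± 9.07) and Cpt1a (16.4 ± 1.66) led, and Angptl4 and Cpt1a did not differ beyond their spread. Pdk4 (1.19 ± 0.345), Acaa1b (0.802 ± 0.577), Ppargc1a (0.517 ± 0.109) and Ppara (0.328 ± 0.283) followed, each within the spread of its neighbour. Pparg was last at 0.0810 ± 0.0331, also within the spread of Ppara, and rests on 3, 4 and 6 counts. In mixed aggregates the order began with Plin2 (41.1 ± 6.23), Angptl4 (20.5 ± 4.03) and Cpt1a (11.6 ± 2.43). Pparg took rank 4 in place of rank 8 (2.10 ± 0.957), within its spread of Acaa1b (1.24 ± 0.335). Ppargc1a (1.02 ± 0.340) came next, within the spread of Acaa1b. Pdk4 (0.611 ± 0.214) and Ppara (0.0516 ± 0.0448) closed the list.

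Within series B, luminal 1 can be set against basal 1 and 3, with 1 library on the luminal side and therefore no test. Luminal 1 held 55.1 and 38.4 times the Acaa1b of basal 1 and 3, 6.38 and 6.17 times the Angptl4, 3.42 and 2.73 times the Plin2, 3.97 and 5.48 times the Pdk4 and 3.81 and 5.69 times the Ppargc1a. For Cpt1a the ratios were 1.28 and 1.33, and for Ppara they went both ways, at 2.13 and 0.786. Pparg stood at 16.0 CPM in luminal 1 against 0.152 and 0.345 CPM in basal 1 and 3. Within series A the mixed libraries can be set against basal 2 alone. Plin2 (120 to 162 against 235 CPM), Cpt1a (68.0 to 104 against 111), Pdk4 (1.32 to 2.78 against 3.09) and Ppara (0 to 0.308 against 0.386) were lower in all 3 mixed libraries. This is part of the pattern given above, which already includes basal 2. For Ppara it rests on 5, 5 and 0 counts against 7. Pparg, Ppargc1a (4.23 to 8.61 against 3.20 CPM) and Angptl4 were higher in all 3, and Acaa1b straddled basal 2 (1.69 to 2.95 against 2.87).

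The mean of both pure kinds served as a reference level for the mixture, and the share of RNA that each cell type gave to it was not measured. All 3 mixed libraries lay below that mean for each of the 8 genes, against 37.7% of all tested genes and 51.4% of the 2304 genes called higher in luminal than in basal aggregates. Cpt1a and Ppara are not among those called higher. Nothing is read from this count, because the genes were chosen with these levels known. Acaa1b stood at 10.3% of the mean (7.20 to 12.6% over the 3 libraries), Pdk4 at 13.3% (8.15 to 17.2%), Ppara at 14.8% (0 to 23.0%), Angptl4 at 29.6% (23.6 to 35.2%) and Plin2 at 37.8% (31.4 to 42.6%). Cpt1a, Pparg and Ppargc1a came nearer on average, at 60.4% (46.3 to 70.8%), 68.5% (32.5 to 87.7%) and 76.1% (48.1 to 97.7%). The median was 92.9% over all tested genes and 84.8% over those called higher in luminal aggregates. Bulk libraries cannot tell fewer luminal cells from less RNA per luminal cell, and what lowered the 8 genes in mixed libraries was not tested. Pdk4, Cpt1a, Plin2 and Ppara lay below both pure kinds in every mixed library, as given above. The luminal marker Muc1 stood at 156 to 169 CPM in mixed and 206 to 268 in luminal libraries, and Kit at 467 to 548 and 186 to 296 CPM.

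**Figure D2:**
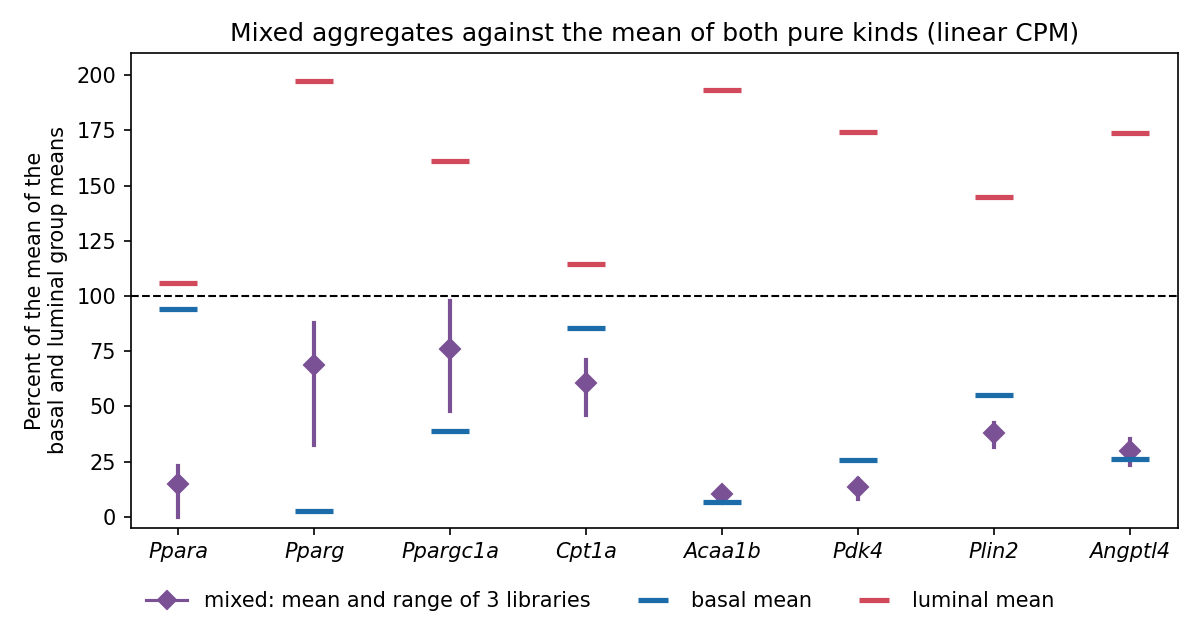
Mean of the 3 mixed libraries (diamond) and their range (vertical line) for each of the 8 genes, in percent of the mean of the basal and luminal group means, with both pure means as horizontal marks. The dashed line is 100%. All mixed ranges lie under the line, the highest reaching 97.7% for Ppargc1a. Mixed means run from 10.3% for Acaa1b to 76.1% for Ppargc1a.

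Other genes of the pathway were taken from 9 lists by role, with 126 symbols, all in the table, of which 107 were tested. The lists were also chosen with earlier results of these data known, so their counts and medians are a description. In luminal against basal aggregates 37 were higher and 10 lower by edgeR's quasi-likelihood test, with a median log2 difference of 0.54. Over all 18051 genes 12.8% were higher and 14.4% lower, with a median of -0.02. Lipid droplet and lipolysis genes rose in 9 of 12 and fell in none (median 1.37), peroxisomal genes in 9 of 21 with none lower (median 0.62), and mitochondrial beta-oxidation genes in 5 of 17 with 1 lower (median 0.33). With the code series as a term 24 were higher and 4 lower, and 27 of the 47 calls remained.

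Among the lipid droplet genes, Mgll, the lipase of monoglycerides, rose from 15.5 to 25.2 CPM in basal to 47.5 to 83.6 in luminal libraries (log2 1.76 ± 0.27, adjusted p = 5.5e-04). Pnpla2, the triglyceride lipase ATGL, rose from 89.5 to 136 to 241 to 338 CPM (1.45 ± 0.22, adjusted p = 5.1e-04), and the droplet coat gene Plin3 by 0.94 ± 0.16 (adjusted p = 8.9e-04). Lipe, hormone-sensitive lipase, rose by 1.55 ± 0.37 (adjusted p = 0.0082, and 0.10 with the code series as a term). Of its exon bases 15.6% are shared with the gene name 4732471J01Rik. Dgat1, which makes triglyceride for storage, rose by 1.18 ± 0.19 (adjusted p = 7.8e-04), as did G0s2, an inhibitor of ATGL, by 1.39 ± 0.30 (adjusted p = 0.0047). Dgat2, another triglyceride-making enzyme gene that was named after its value was seen, did not pass (-0.02 ± 0.24, adjusted p = 0.97).

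Among the oxidation enzymes, Acadl, the long-chain acyl-CoA dehydrogenase, stood at 207 to 290 CPM in basal and 863 to 948 in luminal libraries (1.90 ± 0.17, adjusted p = 9.2e-06). Eci1, an isomerase for unsaturated chains, rose by 1.26 ± 0.22 (adjusted p = 0.0014) and the medium-chain gene Acadm by 1.09 ± 0.17 (adjusted p = 5.0e-04). Acat1, the mitochondrial thiolase of short chains and ketone bodies, fell by 0.73 on the log2 scale (SE 0.18, adjusted p = 0.011, and 0.27 with the code series). In peroxisomes the isomerase gene Ech1 rose by 1.46 ± 0.16 (adjusted p = 3.8e-05). Hadhb, a subunit of the trifunctional protein that was chosen after its value was seen, rose as well (0.86 ± 0.17, adjusted p = 0.0033), but its value is uncertain, because the pseudogene name Hadhb-ps drew 57.7 to 256 CPM and reads placed at several sites were left out.

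The carnitine shuttle moved both ways, with 3 of 8 higher and 2 lower (12.8% and 14.4% over all tested genes). The acetyl-carnitine enzyme gene Crat rose by 1.85 ± 0.26 and Mlycd, which removes the malonyl-CoA that inhibits CPT1, by 1.35 ± 0.19 (adjusted p = 2.3e-04 for each). Cpt2, the inner-membrane partner of Cpt1a, rose by 0.82 ± 0.24 (adjusted p = 0.024, and 0.14 with the code series). Acaca, which makes malonyl-CoA, was lower at -0.83 ± 0.19 (adjusted p = 0.0066, and 0.087 with the code series), and Cpt1c, a form known from neurons, at -2.05 ± 0.24 (adjusted p = 5.5e-05).

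Pyruvate dehydrogenase control genes were likewise divided, with 2 of 5 higher and 2 lower (12.8% and 14.4% over all tested genes). Pdk2 rose by 1.62 ± 0.25 (adjusted p = 4.6e-04) and Pdk1 by 1.11 ± 0.22 (adjusted p = 0.0026, and 0.071 with the code series), whereas Pdk3 was lower at -1.34 ± 0.23 (adjusted p = 0.001, and 0.079). The ketone-using enzyme gene Oxct1 was lower at -1.31 ± 0.20 (adjusted p = 5.0e-04) and Bdh1 at -0.83 ± 0.18 (adjusted p = 0.0049, and 0.13 with the code series). Other gene names share 12.6% of the exon bases of Oxct1 and 13.7% of those of Bdh1.

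In the uptake list 3 of 16 genes rose and 2 fell (median 0.11), so that 31.2% passed, near the 27.1% of all tested genes. Over all tested genes 12.8% rose and 14.4% fell, which also stands beside the counts of cofactors and further targets below. Acsl1, which activates long-chain fatty acids, rose by 1.26 ± 0.27 (adjusted p = 0.0046, and 0.23 with the code series) and the transporter gene Slc27a4 by 0.96 ± 0.17 (adjusted p = 0.0011). Slc27a3 was lower at -2.45 ± 0.32 (adjusted p = 1.4e-04), and the lipoprotein receptor gene Vldlr at -0.61 ± 0.19 (adjusted p = 0.037, and 0.25 with the code series). The fatty acid translocase gene Cd36 stayed at or under 3.30 CPM (adjusted p = 0.37). Of 17 receptor partners and cofactors 3 rose and none fell, among them the coactivator genes Ncoa3 (0.85 ± 0.19, adjusted p = 0.0066) and Ncoa1 (0.64 ± 0.22, adjusted p = 0.048), neither of which passed with the code series (adjusted p = 0.15 and 0.32). Of 7 further targets 2 rose and 1 fell. The acyl-CoA thioesterase genes Acot1 and Acot2 rose by 1.53 ± 0.23 (adjusted p = 4.7e-04) and 1.01 ± 0.31 (adjusted p = 0.033, and 0.14 with the code series). The fatty acid hydroxylase gene Cyp4a10, named after its value was seen, was lower (adjusted p = 0.047, and 0.16 with the code series), at 1.32 to 2.03 CPM in basal libraries and 0 to 0.237 in luminal ones.

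**Figure D3:**
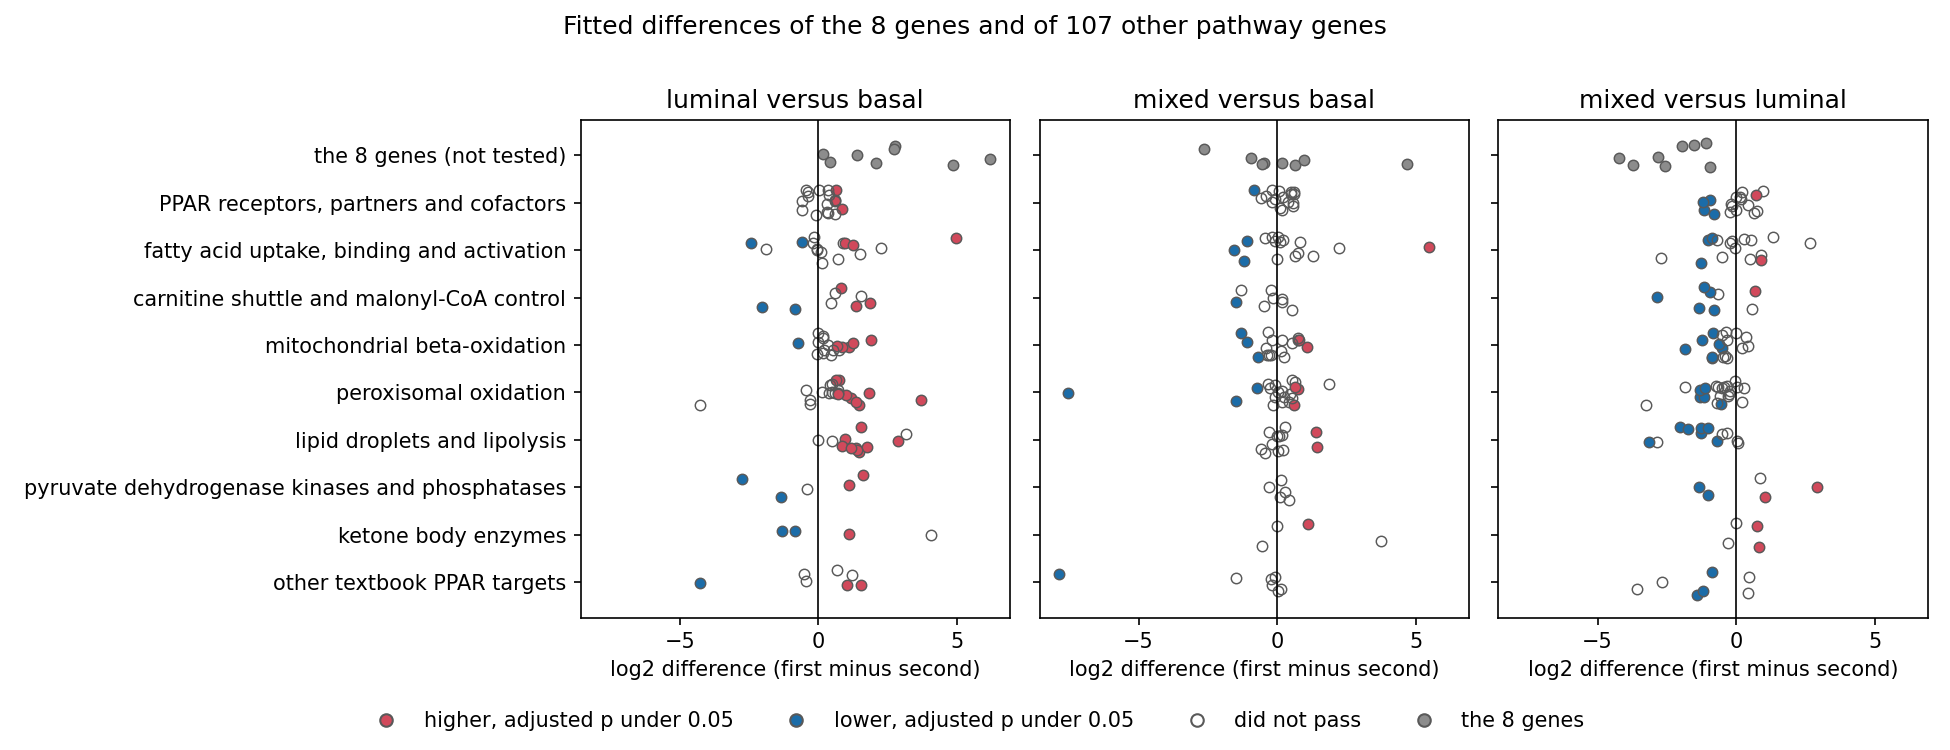
Fitted log2 difference of the 8 genes (grey, not tested) and of the 107 other tested pathway genes, by list, in each of the 3 comparisons. Each point is a gene, red points were higher and blue points lower at an adjusted p under 0.05, and open points did not pass. Lipid droplet points lie mostly to the right in luminal against basal and to the left in mixed against luminal aggregates.

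Against luminal aggregates, mixed aggregates had 36 pathway genes lower and 7 higher (median -0.45), where 14.2% and 15.2% of all tested genes were lower and higher and the median was -0.05. Lipid droplet genes fell in 7 of 12 (median -1.15), carnitine shuttle genes in 5 of 8 with 1 higher (median -0.88) and mitochondrial oxidation genes in 7 of 17 (median -0.48). Peroxisomal genes fell in 5 of 21 (median -0.55). The storage enzyme gene Dgat1 stood at 27.6 to 40.0 CPM in mixed and 111 to 129 in luminal libraries (-1.75 ± 0.20, adjusted p = 1.0e-04). Lipe differed by -2.02 ± 0.37 (adjusted p = 0.0029), Pnpla2 by -1.26 ± 0.22 (adjusted p = 0.0022) and Plin3 by -0.71 ± 0.16 (adjusted p = 0.0071).

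Ech1 was lower in mixed than in luminal aggregates by -1.32 ± 0.16 (adjusted p = 1.8e-04), Crat by -1.34 ± 0.25 (adjusted p = 0.0031) and Mlycd by -1.17 ± 0.19 (adjusted p = 0.0012). Acadvl, the very-long-chain dehydrogenase, differed by -1.85 ± 0.32 (adjusted p = 0.0018), but 42.9% of its exon bases are shared with Dvl2, and strand was not used in counting. Acad9 differed by -1.25 ± 0.26 (adjusted p = 0.006). Acot1 and Acot2 were lower by -1.41 ± 0.23 (adjusted p = 0.0015) and -1.20 ± 0.32 (adjusted p = 0.016), Acsl1 by -1.27 ± 0.27 (adjusted p = 0.006), Pdk2 by -1.33 ± 0.25 (adjusted p = 0.0028) and Pdk1 by -1.01 ± 0.22 (adjusted p = 0.0066). Esrra, the orphan receptor that works with PGC-1alpha, differed by -1.20 ± 0.31 (adjusted p = 0.015), but by 0.16 with the code series as a term. Its level was 20.1 to 27.0 CPM in mixed and 54.3 to 55.2 in luminal libraries, while basal 2 held 17.4 and basal 1 and 3 held 40.3 and 50.0 CPM.

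Higher in mixed than in luminal aggregates were Pdk3 (1.05 ± 0.23, adjusted p = 0.0067), Bdh1 (0.82 ± 0.18, adjusted p = 0.0071), Oxct1 (0.75 ± 0.20, adjusted p = 0.017), Acaca (0.66 ± 0.19, adjusted p = 0.023), Crebbp (0.70 ± 0.21, adjusted p = 0.026) and Slc27a3 (0.89 ± 0.31, adjusted p = 0.049). The remaining gene, Pdp2, outside the naming rule and chosen after its value was seen, encodes a phosphatase that opens pyruvate dehydrogenase. With the code series as a term, 3 of the 43 calls remained (Acadl, Ech1 and Pnpla2), and 491 of all genes were called in place of 5309. Differences near 0 in that fit included those of Esrra (0.16), Crebbp (-0.09), Acad9 (-0.07) and Pdk1 (-0.15). Those of Mlycd (-0.83), Dgat1 (-1.27), Pdk2 (-1.41) and Acot1 (-1.90) kept their sign but did not pass. Without luminal 1 or luminal 3 all calls numbered 3243 or 2967. The 7 higher calls became 14 without basal 2 and 4 without luminal 1 or mixed 3.

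Against basal aggregates, mixed aggregates had 10 pathway genes higher and 12 lower (median 0.06), where 6.39% and 7.33% of all tested genes were higher and lower and the median was -0.07. Acadl rose by 1.05 ± 0.17 (adjusted p = 0.0024), Acadm by 0.74 ± 0.17 (adjusted p = 0.015), Mgll by 1.42 ± 0.27 (adjusted p = 0.0067) and G0s2 by 1.41 ± 0.30 (adjusted p = 0.011). Cpt1c (-1.49 ± 0.23, adjusted p = 0.0019), Acox2 (-1.48 ± 0.28, adjusted p = 0.0065), Acad9 (-1.30 ± 0.26, adjusted p = 0.0093), Slc27a3 (-1.56 ± 0.31, adjusted p = 0.0078) and Slc27a1 (-1.20 ± 0.29, adjusted p = 0.02) were lower. Pnpla2 (0.18 ± 0.22, adjusted p = 0.61) and Plin3 (0.22 ± 0.16, adjusted p = 0.36) did not pass.

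The counts against basal aggregates changed with single libraries. Without basal 2 there were 17 higher and 14 lower, without basal 1 there were 5 and 5, and without basal 3 there were 3 and 5, while all genes called numbered 5120, 1176 and 963 in place of 2477. Leaving out mixed 1, 2 or 3 gave 6, 4 or 5 higher and 8, 6 or 7 lower. With the code series as a term 4 of the 22 calls remained, among them Acadl (higher), Vldlr and Acox2 (both lower). The comparison shares its basal libraries with that of luminal against basal and its mixed libraries with that of mixed against luminal, so the 3 sets of values are not independent.

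Fat cells of the mammary pad also express these genes. The 8 adipocyte markers summed to 8.54 to 13.5 CPM in basal, 25.8 to 34.6 in luminal and 4.41 to 10.6 in mixed libraries, and Lipe, which is also a pathway gene, supplied 24.4 to 33.8 CPM of the luminal sum. The defining markers Adipoq and Plin1 were at or near 0, with at most 0.124 and 0.187 CPM, and both had 0 counts in all mixed libraries. Macrophage and immune markers summed to 4.67, 47.4 and 4.02 CPM in basal 1, 2 and 3, to 22.3 to 54.0 in luminal and to 43.1 to 65.3 in mixed libraries. Lyz2 and Cd74 made up most of it in basal 2 and the mixed libraries and Cd68 in the luminal ones, while Adgre1 stayed at or under 0.871 CPM. The part of such cells in the values of the 8 genes was not tested.

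Fibroblast markers summed to 120 to 153 CPM in basal, 6.77 to 11 in luminal and 48.4 to 71.1 in mixed libraries, with Col1a2 at 0 counts in luminal libraries. Most of the basal sum was Fbln1, at 90.5 to 131 CPM in basal, 0.237 to 1.18 in luminal and 29.2 to 33.1 in mixed libraries. Endothelial markers summed to at most 7.08 CPM in any library. Their part was not tested either.

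Genes whose log2 CPM followed a member closely over the 9 libraries were listed for the 7 members with a mean of at least 1 CPM, among 10002 or 10003 candidates. The 9 points share 3 groups and 3 code series, so r is given as a description. Nearest to Acaa1b were Glmp and Slc48a1 (r = 0.996 for each) and Chl1 (0.991), and nearest to Angptl4 were P2rx4 (0.99), Slc8b1 and Abhd14b (0.988 for each). Pparg was closest to Cd82 (0.993), Sqor (0.991) and Dkkl1 (0.989), and Plin2 followed Hadhb-ps (0.979) and Ppp1r1b (0.974). Cpt1a was closest to Slc35f6 (0.984), Tfe3 (0.982) and Vps11 (0.977), Ppargc1a to Itgb3 (0.973), Snap23 (0.969) and Ctps2 (0.964), and Pdk4 followed Wac (0.981) and Ccdc117 (0.969).

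Among the members themselves, r over the 9 libraries was highest for Pdk4 with Plin2 (0.911) and Acaa1b with Plin2 (0.893). For Cpt1a it was 0.882 with Plin2, 0.853 with Ppara and 0.209 with Pparg, and for Pparg with Ppargc1a it was 0.844. Between Ppara and Pparg it was 0.0131, where Ppara rests on 0 to 43 counts per library.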

How the data were processed

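RNA of 9 libraries had been extracted with a small-input kit and made into stranded mRNA libraries, per the labels' protocols. Trim Galore, Subread and build mm39 are named in the submitters' processing notes. The deposited values are raw counts of read pairs per gene name over exons, made by the authors with featureCounts 2.0.1 without the strand option and without multi-mapped reads, per the file headers. The annotation release is not given in the sources used here. The deposited exon length per gene name gave CPM per kb.

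Counts were fitted in edgeR 4.0.16 (R 4.3.3, limma 3.58.1): filterByExpr by group, TMM scaling, 3 groups in 1 model of all 9 libraries (6 residual degrees of freedom), robust quasi-likelihood tests, two-sided, Benjamini-Hochberg over 18051 genes, threshold 0.05. The code was tested on simulated data. CPM are TMM-normalised with no pseudocount. SE is that of the fitted coefficient. Alternatives included DESeq2 1.42.0, limma-voom and the code series as a term (4 residual degrees of freedom).

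The members and lists were chosen with earlier results of these data known. Pathway genes were named by rule: up to 2 higher and 2 lower per list and comparison by size of difference, where the test passed, groups did not overlap and the mean reached 10 CPM, plus 11 fixed genes. Correlations took log2 CPM (prior count 2), with nearest genes limited to means from 10 CPM and to names other than predicted ones. Marker lists covered adipocyte, fibroblast, endothelial, immune, basal and luminal genes. Libraries are numbered as in the titles, and columns were matched by the descriptions, which number them differently. Some genes that the naming rule covers are not reported here.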

Additional observations from a re-analysis of the deposited data

How the results depend on the processing

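The log2 differences of the 8 genes in the 3 comparisons were recomputed under 17 other settings. Of 407 such values 390 moved by less than the spread between libraries, 10 moved further and 7 changed sign. Leaving out each library in turn gave -0.26 to 1.12 for Ppara, luminal against basal, and -0.21 to 0.41 for Angptl4, mixed against basal. The sign changes were those of Ppara, luminal against basal (0.00 by library size only, 0.00 without basal 1, -0.26 without basal 2 and -0.11 without luminal 1), of Angptl4, mixed against basal (-0.02 by library size only and -0.21 without basal 2), and of Acaa1b, mixed against basal (-0.24 with the code series). With the code series as a term, pathway genes higher and lower numbered 24 and 4 in luminal against basal, 2 and 3 in mixed against basal and 0 and 3 in mixed against luminal aggregates, and all genes called numbered 2507, 853 and 491 in place of 4899, 2477 and 5309. Against a 1.5-fold change they numbered 23 and 5, 3 and 5, and 1 and 17, and all genes called 2885, 898 and 2243. For mixed against basal, DESeq2 called 4004 genes and a fit with no filter on low counts 3903. With each library left out in turn, pathway genes higher and lower ranged from 28 to 42 and 8 to 11 in luminal against basal, 3 to 17 and 5 to 14 in mixed against basal, and 4 to 14 and 28 to 41 in mixed against luminal aggregates, and all genes called from 3678 to 5393, 963 to 5120 and 2967 to 6774. Fewer samples or a stricter threshold belong to some of these settings by construction, and otherwise the cause was not tested.

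Library size scaling moved the median gene in luminal against basal aggregates from -0.02 to -0.17, and the share of higher calls from 47.0% to 35.0% (46.5% to 33.6% in mixed against basal). Pairing by number was checked on the log2 CPM of each gene less the mean of its group. In these remainders, same-numbered libraries of different groups correlated at -0.17 to 0.20. Of the 9 libraries 4 were closest to their own number, so the numbers were not taken as pairs. The fit with the title number as a replicate block called 36 and 8, 9 and 9, and 7 and 36 pathway genes higher and lower, and 4548, 2127 and 5006 of all genes.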

Other observations

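Among pathway genes of low level, some were seen mainly in basal libraries. Cyp4a10, a fatty acid omega-hydroxylase, had 2.03, 1.32 and 1.61 CPM in basal 1, 2 and 3, whereas luminal 2 held 0.237 CPM and the other luminal and all mixed libraries had 0 counts. Abcd2, a peroxisomal transporter of very long chains, had 1.62, 1.76 and 0.517 CPM there, whereas luminal 3 held 0.187 CPM and the others had 0 counts. In libraries at 0 counts these genes may lie anywhere up to 0.162 to 0.187 CPM. Fabp1, a liver fatty acid binding protein gene, was at 0, 0 and 0.0575 CPM in basal libraries and at 0.515, 1.23 and 1.58 CPM in mixed 1, 2 and 3, with 2.02 CPM in luminal 2 and 0.162 and 0.187 in luminal 1 and 3. These 3 genes were chosen after their values were seen.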
